A study of Caenorhabditis elegans with 3 samples.

Results

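The potassium channel genes of the nematode Caenorhabditis elegans are described here as they were measured in RNA of larvae late in the third larval stage (late L3). They were taken as all array probes with exactly 1 gene whose symbol belongs to the twk, kvs, kqt, irk, slo, shk, shl, shw or kcnl series or is sup-9, egl-23, egl-36, egl-2, unc-103 or exp-2. This gave 64 of the 20000 probes of the array, 1 for each of 64 genes among the 15182 genes named on it, and all 64 had a value on every array. The RefSeq gene table of assembly WBcel235 lists 71 genes whose symbols meet the same rule, and the other 7, kvs-5, shl-1, slo-1, twk-45, twk-46, twk-48 and twk-49, were not analysed here.

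The samples were 3 preparations (preps 1, 2 and 3) of late L3 hermaphrodites. Each was hybridised on its own 2-colour array against a mixed reference of wild-type messenger RNA, which was the same kind of sample on all 3 arrays. The labels give no genotype for the larvae, no stages for the reference and no word on separate cultures. The p-values therefore rest on the spread between these preps, which may be partly technical, and leave out the spread of the reference. The limma fit draws each gene's spread towards a value shared by all genes, so they do not measure that gene's own spread alone. Prep, array and the date in the array title are a single factor.

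Potassium channels let potassium ions leave a cell and so pull its membrane potential back towards rest. They set how easily nerve and muscle cells fire. K2P channels, with a tandem pair of pore domains in each subunit, carry a leak current at rest. Voltage-gated channels open on depolarisation, calcium-activated channels on a rise of calcium in the cell, and inward rectifiers pass current most readily near rest. C. elegans has a large K2P family, and its channel genes were in part found through mutants that lay eggs or move abnormally.

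Every value below is a log2 ratio of late L3 over the mixed reference, relative to the median of its array. The numerator is not stated, so late L3 over reference is the likely direction, taken from the order in the sample descriptions, and with the other direction every sign would turn. Genes of adult oocytes and yolk stood far on the lower side, with vit-2 at -5.78, -4.33 and -6.79 in preps 1, 2 and 3 and 12 of 14 oocyte and eggshell markers lower. Pearson's r between arrays was 0.692 to 0.753 over all probes. Spot intensities were not used here, so whether a channel gene's spot stood above background could not be examined.

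Most potassium channel genes lay close to the array median. By limma at a Benjamini-Hochberg adjusted p under 0.05 over all 15143 genes tested, 2 of the 64 were higher, 5 were lower and 57 did not pass. Across all genes tested, 23.3% were called, 11.4% higher and 11.9% lower, while among the potassium channel genes 10.9% were called, 3.12% higher and 7.81% lower. The median of the 64 means was -0.07, against -0.0023 for all genes tested. The size of a typical mean ratio, sign set aside, had a median of 0.251 among the channels and 0.366 among all genes tested. Means beyond 1 log2 unit, a 2-fold difference, were found for 3 channel genes (4.69%), against 13.9% of all genes tested. These shares are descriptions of a chosen family and were not tested. As RNA came from whole larvae, fewer cells of a type and less RNA per cell cannot be told apart here.

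**Figure D1:**
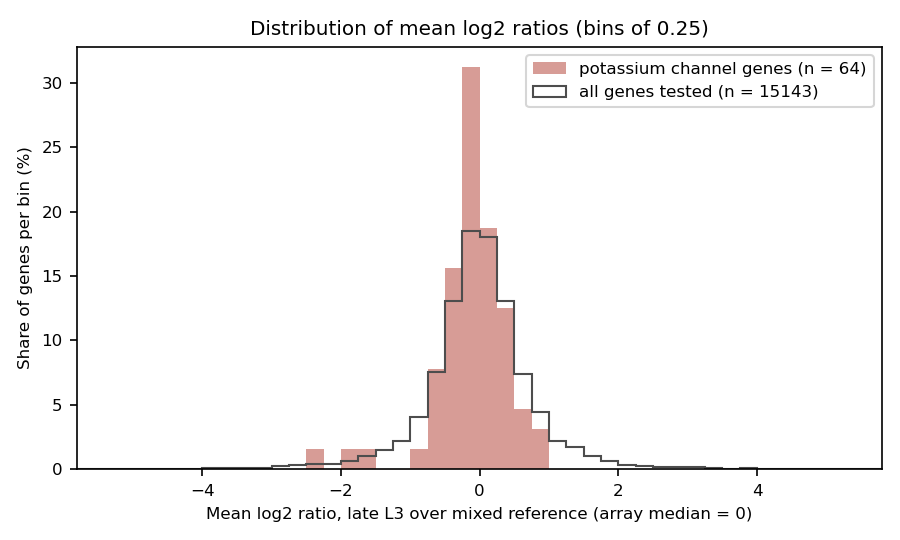
Share of genes (y axis, percent per bin of 0.25) by mean log2 ratio of late L3 over the mixed reference (x axis, n = 3 preps). The filled area is the 64 potassium channel genes and the line all 15143 genes tested. The channel genes crowd around 0, with a tail of 3 genes below -1 and none above 1.

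The K2P family made up 42 of the 64 potassium channel genes and held 6 of the 7 called genes. Of its 42 measured members, 2 were higher, 4 were lower and 36 did not pass. Its called share was 14.3%, against 23.3% of all genes tested. The family's median was -0.05. The family also spanned the whole range of the potassium channel genes, from -2.34 to 0.82.

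twk-5 (sequence name B0334.2, chromosome II) had the lowest mean of all potassium channel genes. Its log2 ratios were -2.89, -2.38 and -1.74 in preps 1, 2 and 3. Each of these lay below every value of the 36 K2P genes that did not pass, which ranged from -0.91 to 1.26 on single arrays. Those 36 were set apart by the test on these same values, so the gap is a description and adds no support to the call. The mean was -2.34 ± 0.58 (SD, n = 3), a level 5.05-fold below the reference, with a 95% interval of -2.90 to -1.77 and an adjusted p of 0.000163 by limma. Among all 15143 genes, 185 had a lower mean.

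twk-29 (F46A9.3, chromosome I) followed, at -2.66, -1.98 and -0.88 in preps 1, 2 and 3. Prep 3 exceeded the others by more than 1 log2 unit, although it too was below the array median. The mean was -1.84 ± 0.90 (SD, n = 3), 3.58-fold lower, with an adjusted p of 0.00213 by limma and the largest SD of the 64 genes.

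twk-7 (F22B7.7, chromosome III), a K2P channel gene known for its part in motor neurons that drive locomotion, was at -1.29, -1.95 and -1.27. All preps were thus more than 2-fold below the reference. Its mean was -1.50 ± 0.39 (SD, n = 3), 2.83-fold lower, with an adjusted p of 0.00116 by limma. The remaining lower K2P gene, twk-1 (F21C3.1, chromosome I), was at -0.75, -1.17 and -0.70, with a mean of -0.87 ± 0.26 (SD, n = 3) and an adjusted p of 0.0158 by limma.

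The higher genes differed less from the reference. twk-42 (W06D12.2, chromosome V) was at 0.76, 1.33 and 0.37 in preps 1, 2 and 3, a mean of 0.82 ± 0.48 (SD, n = 3), 1.77-fold, with an adjusted p of 0.0330 by limma. twk-22 (T01B4.2, chromosome X) was at 0.92, 1.00 and 0.45, a mean of 0.79 ± 0.30 (SD, n = 3), 1.73-fold, with an adjusted p of 0.0259 by limma. Both were above the median on every array and lowest in prep 3, the narrowest prep over all genes tested.

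The calls differed in how far they rested on single preps. twk-5, twk-7 and twk-29 passed when each prep was left out in turn. Without prep 2 the others did not pass, with adjusted p-values by limma of 0.0894 for twk-1, 0.126 for twk-22, 0.184 for twk-42 and 0.170 for the inward rectifier gene irk-3. Without prep 1, twk-22 (0.0791) and irk-3 (0.171) did not pass, while kqt-2 did (0.0288). The count thus became 0 higher and 3 lower without prep 2, when 11.7% of all genes tested were called. With array weights in the fit, twk-42 (0.0511) and irk-3 (0.0599) did not pass by limma. With a trend of the ratios along the probe identifiers subtracted, twk-22 (0.0712) and twk-1 (0.0712) did not pass.

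**Figure D2:**
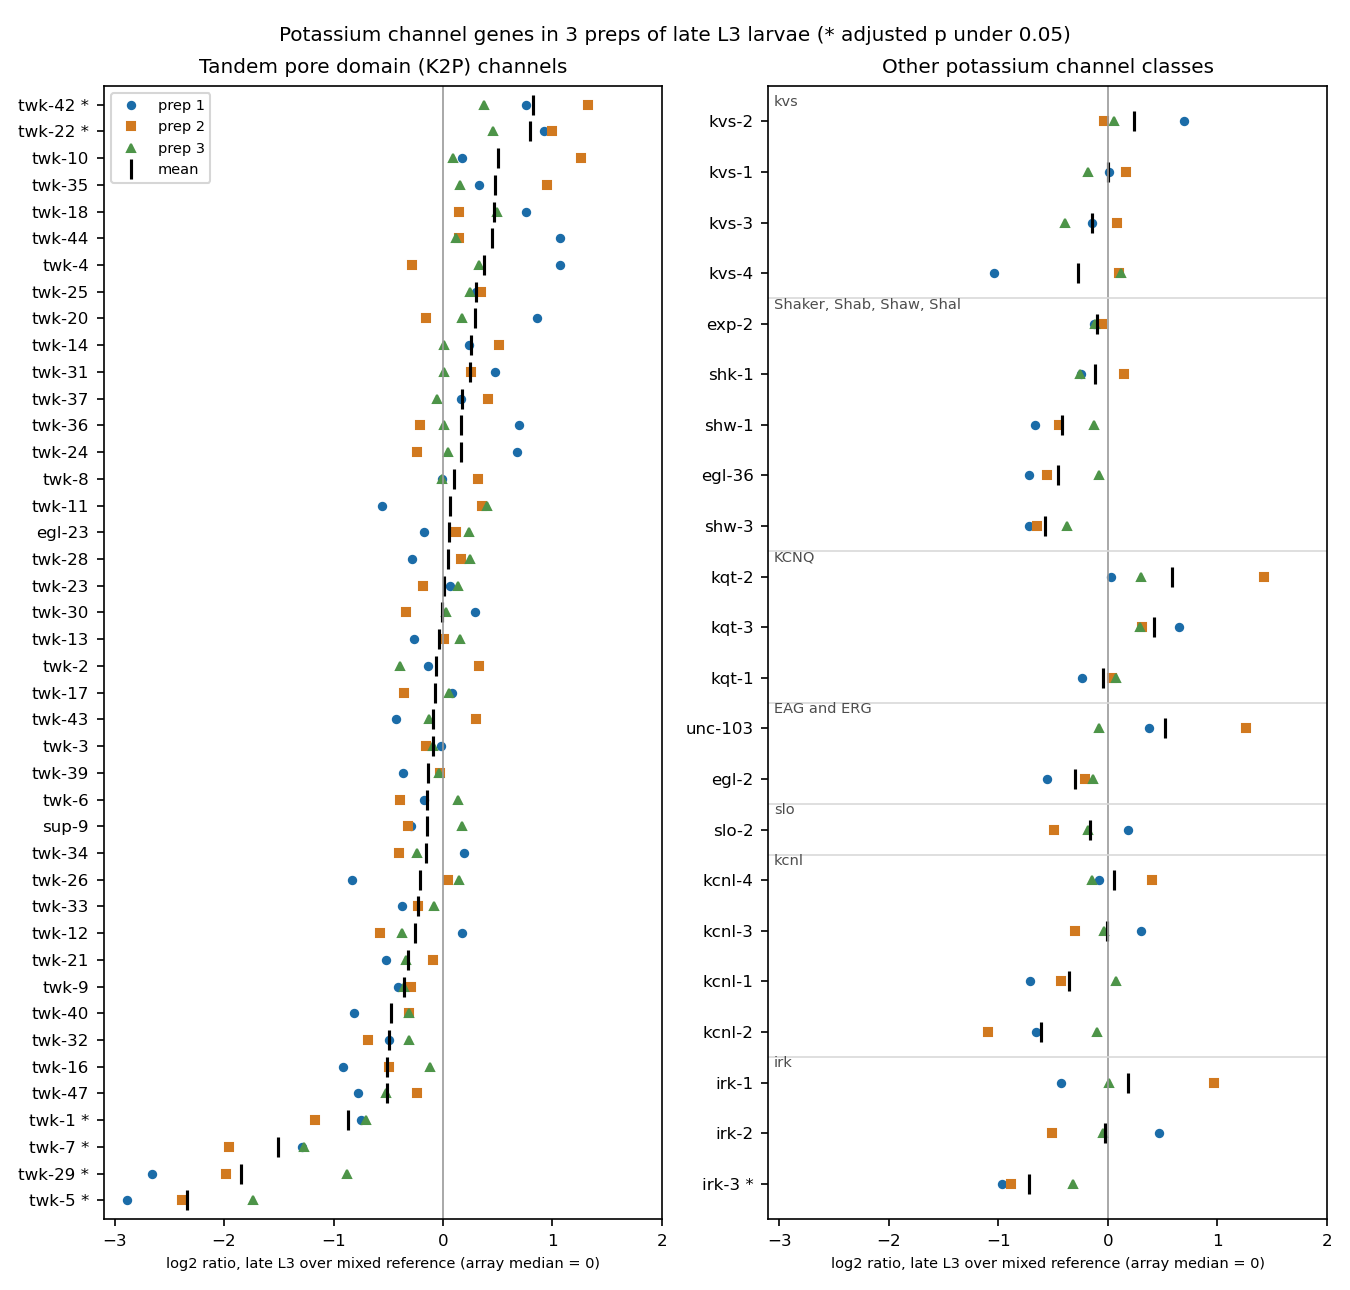
Log2 ratio of late L3 over the mixed reference (x axis) for the 64 potassium channel genes, with a symbol for each prep and a bar at the mean. K2P genes are on the left and the other classes on the right, and asterisks mark an adjusted p under 0.05 by limma. The lower K2P genes twk-5, twk-29 and twk-7 stand at the foot of the left panel each with a mean below -1. Single preps of twk-1, and prep 3 of twk-29, overlap those of genes that did not pass.

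Among the 36 K2P genes that did not pass, means ran from -0.51 to 0.51. Values had the same sign on all 3 arrays for 16 of them (44.4%), against 42.8% of all genes that did not pass. For 34 of the 36, the 95% interval of the mean lay wholly within 1 log2 unit of the array median. A 2-fold difference from the median was thus outside those intervals. The 36 were set apart by the test on these same values, which favours intervals near 0. Most of all genes tested that did not pass had such intervals too. The count is therefore a description and adds no support for an absence of 2-fold differences. twk-18, a K2P channel of body wall muscle whose overactive mutants are paralysed, was at 0.76, 0.14 and 0.50 in preps 1, 2 and 3. It was above the median in each prep, but its mean of 0.47 ± 0.31 (SD, n = 3) did not pass (adjusted p = 0.160 by limma, 95% interval -0.02 to 0.96).

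sup-9, a K2P channel that works in muscle with the proteins of sup-10 and unc-93, was at -0.29, -0.32 and 0.18. Its sign differed between preps and its mean was -0.14 ± 0.28 (SD, n = 3). egl-23, a K2P gene named for the egg-laying defect of its mutants, was at -0.17, 0.11 and 0.23, with a mean of 0.06 ± 0.21 (SD, n = 3). twk-40, picked once its values were known, is a K2P channel gene of the interneurons that command locomotion. It was below the median on every array, at -0.81, -0.31 and -0.31, and did not pass (adjusted p = 0.148 by limma).

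Some K2P genes are near neighbours on a chromosome. twk-22 lies beside twk-21 on chromosome X with no protein-coding gene between them in the RefSeq order. twk-21, picked for its position with its values known, was at -0.52, -0.09 and -0.34 in preps 1, 2 and 3, against 0.92, 1.00 and 0.45 for twk-22. The neighbours thus had opposite signs on every array, although only twk-22 passed the test. On chromosome V, twk-42 stands between twk-33, with 2 protein-coding genes in between, and twk-36, with 1 in between. twk-33 and twk-36, picked likewise, had means of -0.23 ± 0.14 and 0.17 ± 0.47 (SD, n = 3 each), and neither passed. Probe sequences were not used here, and cross-hybridisation between family members was not tested.

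Outside the K2P family, 1 of 22 genes was called, against 23.3% of all genes tested. The median of the 22 was -0.11. The called gene was irk-3 (K04G11.5, chromosome X), of the inward rectifier family. Its log2 ratios were -0.96, -0.88 and -0.32 in preps 1, 2 and 3. All were below the median and least so in prep 3, the narrowest prep over all genes tested. The mean was -0.72 ± 0.35 (SD, n = 3), 1.65-fold lower, with an adjusted p of 0.0426 by limma. The other inward rectifier genes varied in sign. irk-1, which acts in the HSN egg-laying neurons downstream of a neuropeptide receptor, was at -0.43, 0.97 and 0.01, and irk-2 was at 0.47, -0.51 and -0.04.

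Of the 5 measured Shaker, Shab and Shaw genes, 0 passed limma and 1 had an unadjusted p under 0.05. Their means were below 0 (exp-2 at 0.018 with the identifier trend subtracted). So were those of 39 of the 64 channel genes and of 7597 of the 15143 genes tested. The median of the Shaker, Shab and Shaw genes was -0.41, with prep medians of -0.67, -0.45 and -0.13 in preps 1, 2 and 3. The Shaw gene shw-3 was lowest, at -0.72, -0.64 and -0.37, with a mean of -0.58 ± 0.19 (SD, n = 3) and an adjusted p of 0.0748 by limma. egl-36, a Shaw channel whose overactive mutants retain eggs, was at -0.72, -0.56 and -0.08, and its mean of -0.45 ± 0.33 (SD, n = 3) had an adjusted p of 0.176 by limma. shw-1, picked once its values were known, had -0.67, -0.45 and -0.13. These 3 Shaw genes were below the median on every array and closest to it in prep 3. Prep 3 was also the narrowest prep over all genes tested.

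exp-2, the Shab-type channel that ends action potentials in pharyngeal muscle, was the steadiest of all 64 genes, at -0.13, -0.05 and -0.12. Its mean of -0.10 ± 0.04 (SD, n = 3) had a 95% interval of -0.56 to 0.36. shk-1, the Shaker channel of body wall muscle and neurons, was at -0.24, 0.14 and -0.25. Neither was distinguishable from the array median.

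The 4 kvs genes ranged from -0.27 to 0.24 in mean, with a median of -0.07, and 0 passed limma or had an unadjusted p under 0.05. kvs-1, which carries a transient current in sensory neurons together with MinK-related mps subunits, was at 0.01, 0.17 and -0.18. kvs-2 was at 0.69, -0.03 and 0.06, and kvs-3 at -0.14, 0.09 and -0.39. kvs-4 was set apart in prep 1, at -1.04, against 0.11 and 0.12 in preps 2 and 3.

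KCNQ genes had the highest class median, 0.42 (0.16 without prep 2), with 0 of 3 past the threshold in limma and 0 at an unadjusted p under 0.05. kqt-2 and kqt-3 are both known in the intestine. kqt-2 was at 0.03, 1.43 and 0.30 in preps 1, 2 and 3, so that prep 2 alone stood over 1 log2 unit above the others, and its mean was 0.59 ± 0.74 (SD, n = 3, adjusted p = 0.166 by limma). kqt-3 was at 0.65, 0.31 and 0.30, above the median on each array, with a mean of 0.42 ± 0.20 (SD, n = 3, adjusted p = 0.185 by limma). kqt-1, known in the pharynx and in neurons, was at -0.24, 0.04 and 0.07.

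Mutations of the EAG channel gene egl-2 and of the ERG channel gene unc-103 are known to alter egg laying. unc-103, which restrains the excitability of vulval and other muscles, was at 0.38, 1.26 and -0.08, with a mean of 0.52 ± 0.68 (SD, n = 3, adjusted p = 0.201 by limma). egl-2 was at -0.56, -0.21 and -0.13, with a mean of -0.30 ± 0.23 (SD, n = 3). unc-103 thus changed sign between preps, while egl-2 was below the median on all arrays.

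The measured genes of the slo and kcnl channels, most of them opened by calcium, did not pass the threshold. slo-2, a large-conductance channel of muscle and motor neurons, was at 0.18, -0.49 and -0.18. Of the small-conductance kcnl genes, kcnl-2, loss of which lowers the rate of egg laying, was at -0.65, -1.09 and -0.10, with a mean of -0.61 ± 0.50 (SD, n = 3) and an adjusted p of 0.0972 by limma. It was below the median on every array, but its preps were spread over nearly 1 log2 unit. kcnl-1 was at -0.71, -0.43 and 0.07, kcnl-3 at 0.31, -0.30 and -0.03, and kcnl-4 at -0.08, 0.40 and -0.15.

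Grouped by the tissue or behaviour they are known for, channel genes gave 0 calls. Of all 64 potassium channel genes 10.9% were called, and of all genes tested 23.3%. With so few genes in each group, these counts are given as they stand. Of 5 measured channels known in body wall muscle (twk-18, sup-9, shk-1, slo-2 and unc-103), 0 passed limma, and 0 had an unadjusted p under 0.05. Of 6 with egg-laying phenotypes (egl-36, egl-2, egl-23, unc-103, irk-1 and kcnl-2), 0 passed, and kcnl-2 had an unadjusted p of 0.0298. Of 4 known in pharynx or intestine (exp-2, kqt-1, kqt-2 and kqt-3), 0 passed, with unadjusted p-values of 0.0637 or more. The medians of these groups were -0.12, -0.12 and 0.19.

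**Figure D3:**
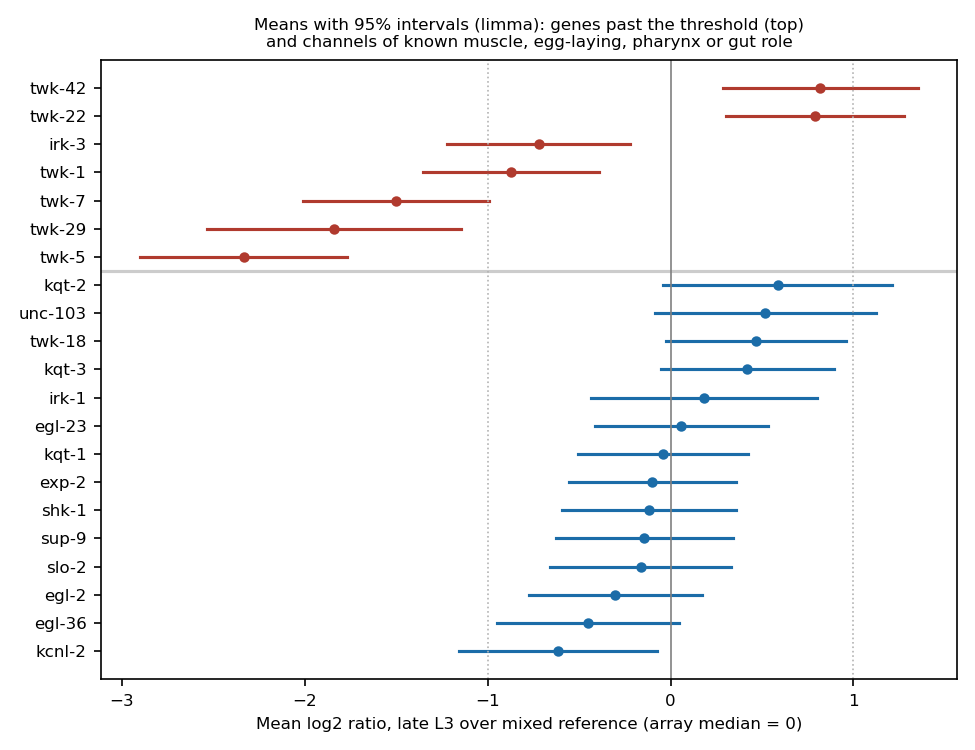
Mean log2 ratio (x axis, n = 3 preps) with its 95% interval from limma for the 7 called potassium channel genes (top) and for the channels with a known role in muscle, egg laying, pharynx or intestine (bottom). Dotted lines mark 2-fold differences. The intervals of twk-5 and twk-29 lie wholly below -1, while the role groups cross 0 except for kcnl-2, at -1.15 to -0.07.

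The preps differed in how strongly the channel genes were spread. The median absolute deviation of the 64 genes, scaled to match an SD, was 0.633, 0.442 and 0.256 in preps 1, 2 and 3, and that of all genes tested was 0.697, 0.795 and 0.406. Prep 3 was the narrowest in both sets. Values had 1 sign on all arrays for 31 channel genes (48.4%), against 55.9% of all genes tested. A prep lay over 1 log2 unit outside the other preps for 4 channel genes (6.25%), against 9.67% of all genes tested. They were kvs-4 (below, prep 1), kqt-2 and twk-10 (above, prep 2) and twk-29 (above, prep 3). twk-10, picked once its values were known, had 0.17, 1.26 and 0.09.

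Across the 64 genes, Pearson's r was 0.633 between preps 1 and 2, 0.716 between preps 1 and 3 and 0.722 between preps 2 and 3. Among the 57 that did not pass it was 0.226, 0.386 and 0.326. Over all genes tested r was 0.712, 0.721 and 0.778, and among the 11619 of them that did not pass it was 0.215, 0.206 and 0.350. The calls come from the same arrays, so r is lower without the called genes by construction, and nothing particular to the channels follows from it. Genes share their arrays and are not independent replicates, so these values are descriptions.

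**Figure D4:**
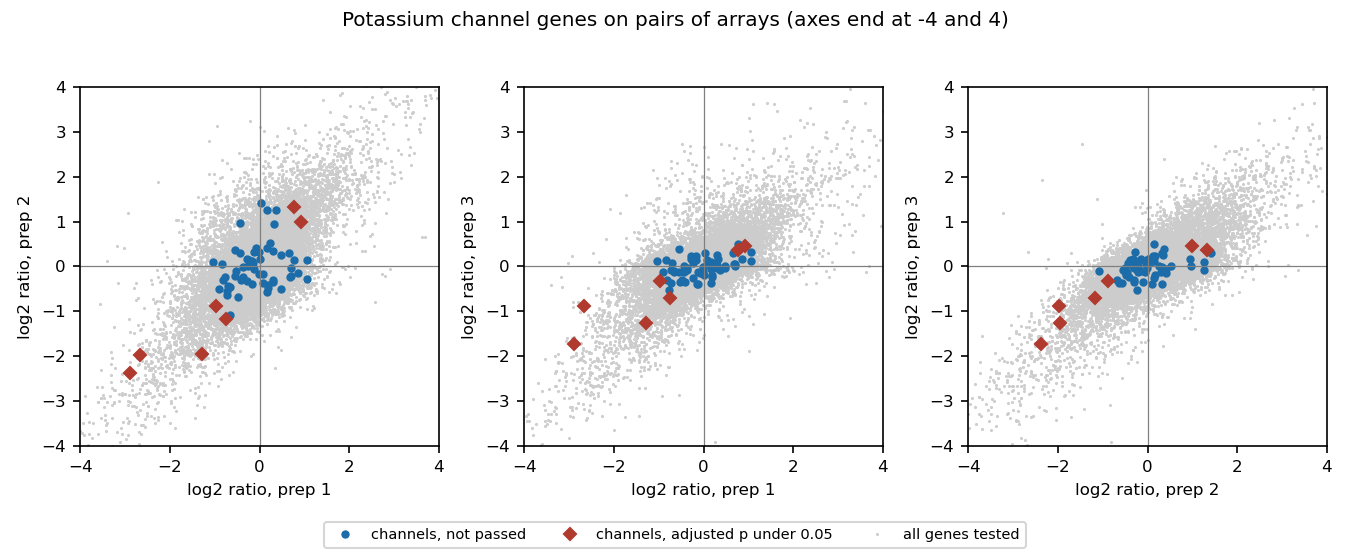
Log2 ratios of each gene on pairs of arrays (prep 1 and 2, prep 1 and 3, prep 2 and 3), with called potassium channel genes as diamonds, the other channel genes as circles and all genes tested as grey points. The called genes, selected on these same values, lie along the diagonal, and the 57 others form a cloud around 0 that is narrowest along prep 3.

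By chromosome, the lower channel genes were twk-1 and twk-29 among 6 on chromosome I, twk-5 among 8 on II, twk-7 among 7 on III and irk-3 among 19 on X. The higher ones were twk-42 among 20 on V and twk-22 on X. The 4 genes on chromosome IV had 0 calls by limma and 0 unadjusted p-values under 0.05. Of all genes tested on chromosome I 14.2% were lower and 9.04% higher, and on chromosome X 9.76% were lower and 14.6% higher. With so few calls per chromosome, these counts are given as they stand.

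Genes that work with potassium channels were also mostly near the median. Of 12 measured accessory subunits and regulators, 1 was higher and 0 were lower, against 11.4% and 11.9% of all genes tested. The median of the 12 was -0.07. The higher one, dys-1, encodes dystrophin, whose complex helps place calcium-activated channels in muscle, and was at 0.59, 0.85 and 0.97 in preps 1, 2 and 3 (mean 0.80 ± 0.20 SD, n = 3, adjusted p = 0.0209 by limma). Without prep 2 and without prep 3 its adjusted p-values were 0.0858 and 0.120. Of 11 voltage-gated calcium and sodium leak channel genes, 0 passed limma and 1 had an unadjusted p under 0.05, with a median of -0.03. Among all genes tested, 23.3% passed limma and 35.6% had an unadjusted p under 0.05.

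Of 10 measured genes of the sodium-potassium ATPase and cation-chloride cotransporters, which carry potassium across the membrane, 4 passed as higher, 6 did not pass and 0 were lower. Among all genes tested, 11.4% were called higher and 11.9% lower. The median of the 10 was 0.45. eat-6, the catalytic subunit of the sodium pump, was at 1.80, 2.23 and 1.01 in preps 1, 2 and 3, with a mean of 1.68 ± 0.62 (SD, n = 3), 3.21-fold, and an adjusted p of 0.00129 by limma. The sodium pump gene nkb-3 averaged 0.93 ± 0.65, while the related nkb-1 (0.51 ± 0.31) and nkb-2 (0.24 ± 0.37) did not pass (SD, n = 3 each). The potassium-chloride cotransporter kcc-3 averaged 0.85 ± 0.45, and the sodium-potassium-chloride cotransporter nkcc-1 averaged 0.77 ± 0.14 (SD, n = 3 each). Each of the 4 called genes was above the median on all arrays, and all except eat-6 lost the call without prep 2. The call was also lost for nkb-3 without prep 1 (adjusted p = 0.195 by limma) and for nkcc-1 without prep 3 (0.0974). With a trend along the probe identifiers subtracted, kcc-3 (adjusted p = 0.105 by limma) and nkcc-1 (0.0631) did not pass.

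Markers of the cell types that could carry these channels moved in different directions. Among all genes tested, 11.4% were called higher and 11.9% lower. Of 11 measured muscle markers 9 were higher and 0 lower, with a median of 1.70, from myo-2 at 0.45 ± 0.04 (not passed) to myo-3 at 2.76 ± 1.12 (SD, n = 3 each). The median of the muscle markers was 1.87, 2.21 and 1.19 in preps 1, 2 and 3. Of 15 measured neuronal markers 4 were lower (sbt-1, ida-1, snt-1 and rgef-1) and 0 higher, with a median of -0.21. They ran from sbt-1, a neuropeptide processing chaperone, at -1.40 ± 0.27 to unc-18 at 0.38 ± 0.24 (SD, n = 3 each). The neuronal medians were -0.05, -0.40 and -0.20. Of 10 intestine markers 6 were higher and 1 lower, with a median of 1.08, from ftn-1 at -2.06 ± 0.90 to vha-6 at 2.43 ± 0.76. The oocyte and eggshell markers had a median of -2.66, from perm-2 at -4.59 ± 0.28 to cpg-2 at 0.30 ± 0.19. The part of cell composition in the channel ratios was not tested.

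**Figure D5:**
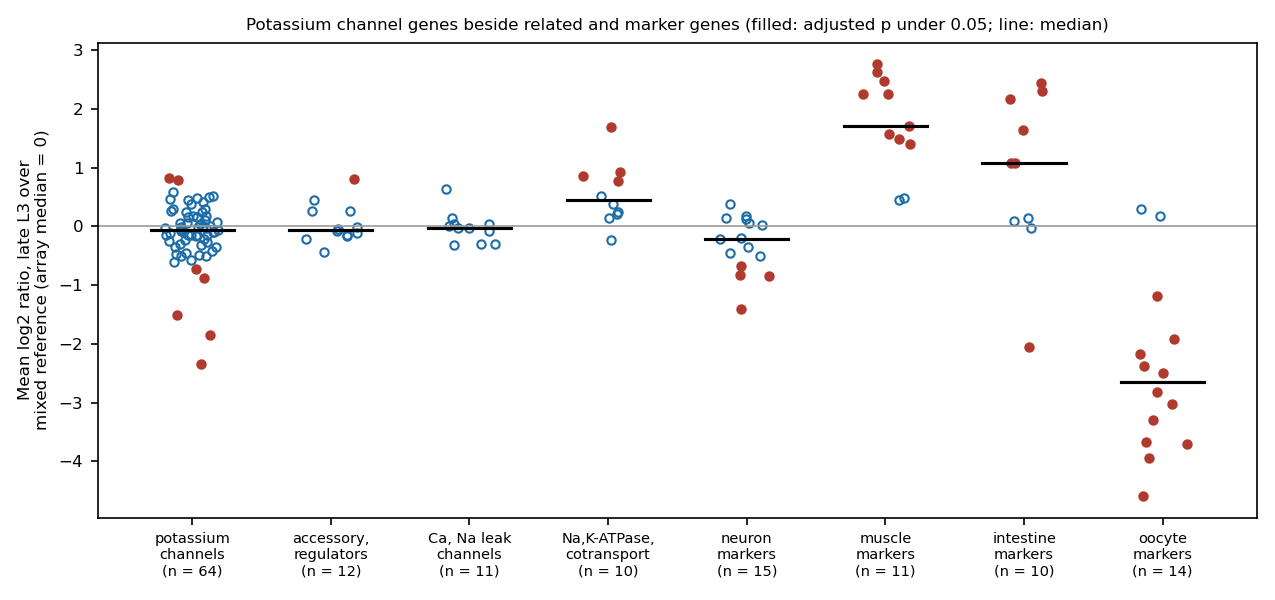
Mean log2 ratio of late L3 over the mixed reference (y axis, n = 3 preps) for each gene of the potassium channel set, of related gene groups and of cell type markers. Filled points passed an adjusted p under 0.05 by limma and lines are medians. The medians are -0.07 for the channel genes, -0.21 for neuronal markers, 1.08 for intestine markers, 1.70 for muscle markers and -2.66 for oocyte markers.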

How the data were processed

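The values are the deposited log2 ratios of the 2 channels of 3 arrays. How the authors normalized and filtered them is not stated in the labels. Base 2 follows from the numbers themselves: ratios under 0.3, taken back to the linear scale, were whole thousandths (within 0.01) for 100% of values. Preps 1, 2 and 3 had 19909, 19855 and 19875 values, with medians of 0.06, -0.05 and -0.0014, and the number of arrays limits the precision. Of the probes, 15655 had 1 gene, 198 several and 4147 none. Symbols were updated through RefSeq (WBcel235) for 15576 and kept for 79.

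Array medians were subtracted and different probes of 1 gene averaged. The 15143 genes measured on every array were then tested against 0, 2-sided, by limma 3.58.1 (R 4.3.3, intercept only, eBayes), Benjamini-Hochberg adjusted over all genes, with a threshold of 0.05. The prior had 7.93 degrees of freedom. The fit was tested on simulated data. Python 3.11.15 with matplotlib 3.10.9 drew the figures. The genes named are all called members, the extremes of each class, all members of classes of at most 4, members with a listed role, called genes of related lists, the extremes of marker lists and vit-2. Members and lists were chosen with earlier results of these data known. Alternatives covered centring, scale, quantile normalization, missing values, single probes, spread, prior, array weights, moderation, thresholds, a trend along probe identifiers and each prep left out.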

Additional observations from a re-analysis of the deposited data

How the results depend on the processing

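The counts of potassium channel genes were 2 higher and 5 lower. Leaving out each prep in turn gave 0 to 2 higher and 3 to 5 lower, against 768 to 1750 higher and 1009 to 1542 lower of all genes tested. At an adjusted p under 0.01 the channel counts were 0 and 3 (890 and 1001 of all genes). A one-sample test without moderation called 0 channel genes and 0 of all genes in either direction, with 9 and 3272 at an unadjusted p under 0.05. Array weights left 1 higher and 4 lower, with the calls of twk-42 and irk-3 lost, and subtraction of the identifier trend also left 1 higher and 4 lower, with those of twk-22 and twk-1 lost. Without the 10% of genes with the largest SD, 3 channel genes were higher and 8 lower, unc-103, kcnl-2 and shw-3 among them, and 34.5% of all genes tested were called. That fit holds fewer genes, those with the smaller spreads. It holds 61 of the channel genes and leaves out twk-29, which the main fit called lower. Over its alternatives the channel median stayed between -0.08 and -0.06.

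Some named genes near 0 changed sign without passing. With array weights irk-2 was at 0.022, kcnl-3 at 0.019 and kcnl-4 at -0.013. With the identifier trend subtracted exp-2 was at 0.018, kqt-1 at 0.032, kcnl-4 at -0.10 and twk-33 at 0.024. Quantile normalization put kcnl-4 at -0.0054, and values as deposited put kvs-1 at 0.0011. With each prep left out, egl-23 ranged from -0.028 to 0.17, irk-1 from -0.21 to 0.49, irk-2 from -0.28 to 0.21, kcnl-3 from -0.17 to 0.14, kcnl-4 from -0.11 to 0.16, kqt-1 from -0.10 to 0.056, kvs-1 from -0.087 to 0.089, kvs-4 from -0.47 to 0.12 and twk-36 from -0.10 to 0.35. The cause was not tested. No paired analysis was possible because the arrays form 1 group.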
